A study of Rattus norvegicus with 6 samples.

Results

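Genes that work inside and on the surface of white blood cells were followed in rat granulation tissue, the new tissue that fills a wound, between day 1 and day 3 after an implant was placed. The 57 genes were listed by name for their part in haematopoietic signalling, tetraspanin membrane organisation and control of the actin cytoskeleton. They were chosen with earlier results of these data known. Every array probe annotated to a listed gene was taken, which gave 50 probes for 48 genes, out of 13336 named genes on the array. The other 9, Clec4a, Cd244, Alox5ap2, Pik3cg, Lsp1, Itgax, Cd33, Evi2a and Dock2, had no probe under that symbol in the annotation used here and have no value.

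The tissue had grown in cellulose coated with hydroxyapatite, a calcium phosphate mineral, placed subcutaneously in 10-week-old Sprague-Dawley rats. RNA from whole implants, 6 implants of 6 rats, was measured on 1-colour Illumina bead arrays, with rats 1, 2 and 3 at 24 hours (day 1) and rats 4, 6 and 7 at 72 hours (day 3). Both groups carried the same implant, and the labels name no drug treatment or genotype; uncoated implants and unwounded skin were not analysed here. Signals are normalized log2 intensities of the 6 arrays, a change is day 3 minus day 1, and values are mean ± SD with n = 3 rats a day unless said otherwise. Tests are limma's, with Benjamini-Hochberg adjustment over all 11591 probes kept, and "fell" or "lower" is used of adjusted p under 0.05.

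Leukocytes read their surroundings through surface receptors whose signals pass to kinases of the Src, Syk and Tec families. Adaptor proteins then gather phospholipase C, phosphoinositide 3-kinase and Vav exchange factors at the membrane, and phosphatases and inhibitory adaptors limit the response. The same signals reach Rac and the Wiskott-Aldrich protein, which drive branched actin for migration and phagocytosis. In a fresh wound neutrophils arrive early and monocytes and macrophages follow. In bulk tissue, fewer cells of a type and less RNA per cell cannot be told apart.

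Of the 48 genes with a probe, 47 passed the filter on dim signal, and among these 37 were lower at day 3 and 0 were higher. Of all tested probes, 31.9% passed, 15.2% as lower and 16.7% as higher. Because the list was chosen with earlier results known, the excess of falls is a description and not an independent test. With no filter on dim signal, 36 of 48 member genes were lower and 0 higher, where 7.02% of all probes were lower and 8.32% higher. These counts take the brightest kept probe of each gene, and by that probe 0 genes were higher at an unadjusted p under 0.05 either. The median change of the 47 genes was -1.22, and that of all tested probes was -0.05. In 40 of the 47 every day 3 rat lay below every day 1 rat, and in 7 the days overlapped. Of all tested probes, 49.4% had days that did not overlap, 25.6% with day 3 below and 23.8% with day 3 above. Of the members, 43 were above the array median on all 6 arrays, and each of the 47 was above it on at least 1 array of both days. Stk10, a kinase that regulates lymphocyte adhesion, was below the array median on every array and was not tested. When each probe was tested on its own spread with no moderation over probes, 20 members were lower and 0 higher, and without day 3 rat 6 the counts were 29 and 0. Of all 11591 tested probes, 672 were lower and 1019 higher on their own spread, and 881 and 1135 without day 3 rat 6.

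The size of the fall differed widely. Among the genes that passed, 7 fell at least 4-fold, 21 fell between 2-fold and 4-fold, and 9 fell by less. Of all tested probes, 6.31% were lower by at least 2-fold. The plot of changes by role shows the spread within each group of proteins.

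**Figure D1:**
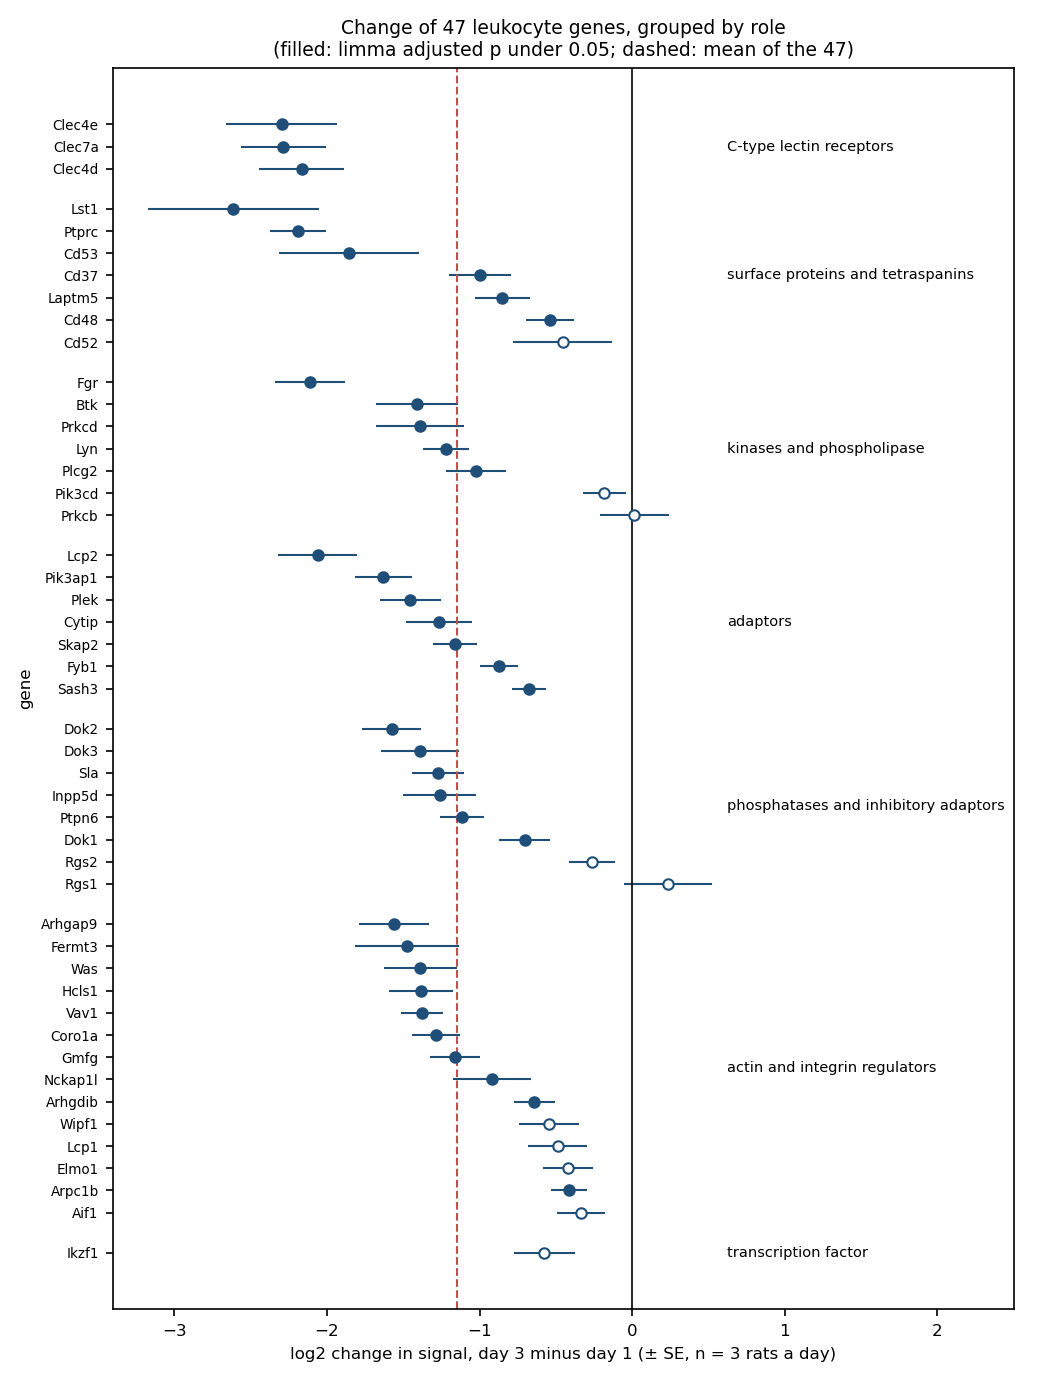
Log2 change in signal from day 1 to day 3 (horizontal axis, ± SE, 3 rats a day) for the 47 members, grouped by role; filled points passed limma at adjusted p under 0.05 and the dashed line is the mean of the 47. Lst1 and the lectin receptors Clec4e and Clec7a lie farthest to the left, while Prkcb and Rgs1 lie at or to the right of 0.

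All 3 C-type lectin receptors with a probe fell by similar amounts. Clec4e (Mincle), a receptor for mycobacterial glycolipid and for material of dead cells, had signals of 13.61, 13.95 and 12.94 in day 1 rats 1, 2 and 3 and 11.91, 10.80 and 10.89 in day 3 rats 4, 6 and 7. It fell 4.91-fold (change -2.30 ± 0.363 SE, limma adjusted p = 0.00483), with no overlap of the days. Clec7a (Dectin-1), which binds fungal beta-glucan and signals through its own cytoplasmic tail, had 12.91, 13.15 and 12.34 at day 1 and 11.002, 10.18 and 10.37 at day 3. It fell 4.88-fold (adjusted p = 0.00212). Clec4d, a lectin that pairs with Clec4e in the mouse, went from 11.23, 11.34 and 10.66 to 9.40, 8.89 and 8.44. It fell 4.49-fold (adjusted p = 0.00255), a change of -2.17, while the rats spanned 0.68 at day 1 and 0.96 at day 3. Clec4e had adjusted p = 0.0507 when tested on its own spread.

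Clec4d and Clec4e lie side by side on rat chromosome 4 in the RefSeq annotation of GRCr8, Clec4d from 158275287 to 158286978 and Clec4e from 158292624 to 158298607. Their promoter windows are shown because the genes are neighbours that fell by similar amounts. Each window is listed as 250 bases before to 50 after a start, 5′ to 3′ on the gene's strand, from RefSeq. That start is not the outer boundary of the gene given above, since both windows reach more than 50 bases into the gene. Capitals mark the letters GAGGAA or, on the other strand, TTCCTC, a core that PU.1 binds. Other sequences that Ets factors bind were not searched for. The Clec4d window is chr4:158275093-158275392 on the plus strand and the Clec4e window chr4:158298418-158298717 on the minus strand.
Clec4d: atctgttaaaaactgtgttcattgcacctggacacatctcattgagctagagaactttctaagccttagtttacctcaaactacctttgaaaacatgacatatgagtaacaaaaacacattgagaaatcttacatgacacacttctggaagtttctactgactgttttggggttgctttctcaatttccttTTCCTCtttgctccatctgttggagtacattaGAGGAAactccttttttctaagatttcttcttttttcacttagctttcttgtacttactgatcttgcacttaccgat
Clec4e: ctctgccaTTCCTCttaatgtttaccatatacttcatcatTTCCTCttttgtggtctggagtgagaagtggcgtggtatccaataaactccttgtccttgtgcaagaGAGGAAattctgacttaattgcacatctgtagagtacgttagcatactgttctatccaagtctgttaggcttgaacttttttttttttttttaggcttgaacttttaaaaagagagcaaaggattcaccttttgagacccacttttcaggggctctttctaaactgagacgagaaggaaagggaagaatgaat
The Clec4d window holds 2 matches and the Clec4e window 3, while the window of Clec7a, on the same chromosome and with a similar fall, holds 0.

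The windows of Ptprc and Rgs1 are shown as a contrast, since both genes lie on chromosome 13 and Ptprc fell strongly while Rgs1 did not pass the test. Rgs1 lay near the array median, where a fall is understated, and its change was 0.23. The Ptprc window is chr13:52259697-52259996 and the Rgs1 window chr13:58573138-58573437, both on the minus strand.
Ptprc: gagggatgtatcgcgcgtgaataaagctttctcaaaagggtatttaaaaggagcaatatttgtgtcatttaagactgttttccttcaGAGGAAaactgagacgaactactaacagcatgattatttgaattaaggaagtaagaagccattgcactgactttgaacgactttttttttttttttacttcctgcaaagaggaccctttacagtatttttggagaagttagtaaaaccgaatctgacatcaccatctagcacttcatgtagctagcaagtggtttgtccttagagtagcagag
Rgs1: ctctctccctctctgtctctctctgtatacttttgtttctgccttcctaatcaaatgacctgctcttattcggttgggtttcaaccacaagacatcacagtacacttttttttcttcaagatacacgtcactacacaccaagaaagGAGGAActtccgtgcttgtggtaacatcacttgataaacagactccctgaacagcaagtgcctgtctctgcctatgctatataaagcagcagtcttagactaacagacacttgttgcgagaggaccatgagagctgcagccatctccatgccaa
Each holds 1 match. Of the listed members, 41 had an entry in the promoter table, with 42 windows, and 23 of these (54.8%) held a match, against 27.6% of all 33469 windows of 300 bases. Among members that fell more than the mean of the 47, tested further on, 4 of 6 windows held one, and among those that fell less, 4 of 10. A match to these letters is a description of the sequence only.

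Among surface proteins, 6 of 7 measured genes fell, but on each probe's own spread 1 of them, Ptprc, kept the call and Lst1, Cd53, Cd37, Laptm5 and Cd48 lost it. Ptprc (CD45), the receptor phosphatase carried by nearly all nucleated blood cells, had signals of 10.46, 10.72 and 10.44 at day 1 and 8.49, 7.98 and 8.58 at day 3. It fell 4.56-fold (change -2.19 ± 0.185 SE, limma adjusted p = 0.000723), the smallest adjusted p of the members. Lst1, a small membrane protein of myeloid cells, had the largest fall, 6.11-fold (adjusted p = 0.0135). Its day 1 signals were 11.22, 10.84 and 10.99, while the day 3 rats ranged from 7.01 in rat 4 to 8.78 in rat 7 and 9.42 in rat 6. The day 3 spread of Lst1, an SD of 1.25, was the widest of any member, and without day 1 rat 1 its adjusted p was 0.0542. Without day 3 rat 4 the fall of Lst1 was 3.77-fold (adjusted p = 0.0069), smaller than that of Clec4e, 6.29-fold, and Clec7a, 5.77-fold, so its size and rank rest on that rat. The tetraspanins Cd53 and Cd37, which organise receptors in leukocyte membranes, differed in size. Cd53 had 11.93, 10.73 and 10.50 at day 1 and 9.07, 8.57 and 9.93 at day 3, a 3.62-fold fall (adjusted p = 0.022). Leaving out day 1 rat 1 gave adjusted p = 0.0554, leaving out day 3 rat 6 gave 0.0767, and leaving out day 3 rat 4 gave 0.0663.

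The other surface proteins fell less. Cd37 went from 11.33 ± 0.39 to 10.33 ± 0.11, a 1.99-fold fall (adjusted p = 0.0116; 0.0507 without day 3 rat 6). Laptm5, a lysosomal membrane protein of blood cells, fell 1.80-fold (adjusted p = 0.0131; 0.0519 without day 3 rat 7). Cd48, a ligand of the Cd2 family, went from 12.22 ± 0.26 to 11.68 ± 0.12, a 1.45-fold fall (adjusted p = 0.0384). With rat 2 or rat 3 of day 1 left out its adjusted p was 0.0755 or 0.0568, and with rat 4, 6 or 7 of day 3 left out it was 0.126, 0.104 or 0.0775. Cd52, a small lipid-anchored glycoprotein, had 6.75, 7.65 and 6.31 at day 1 and 6.28, 6.66 and 6.40 at day 3 (change -0.46, adjusted p = 0.32). Those Cd52 values straddle the array median of 6.47, so a fall could hardly show.

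**Figure D2:**
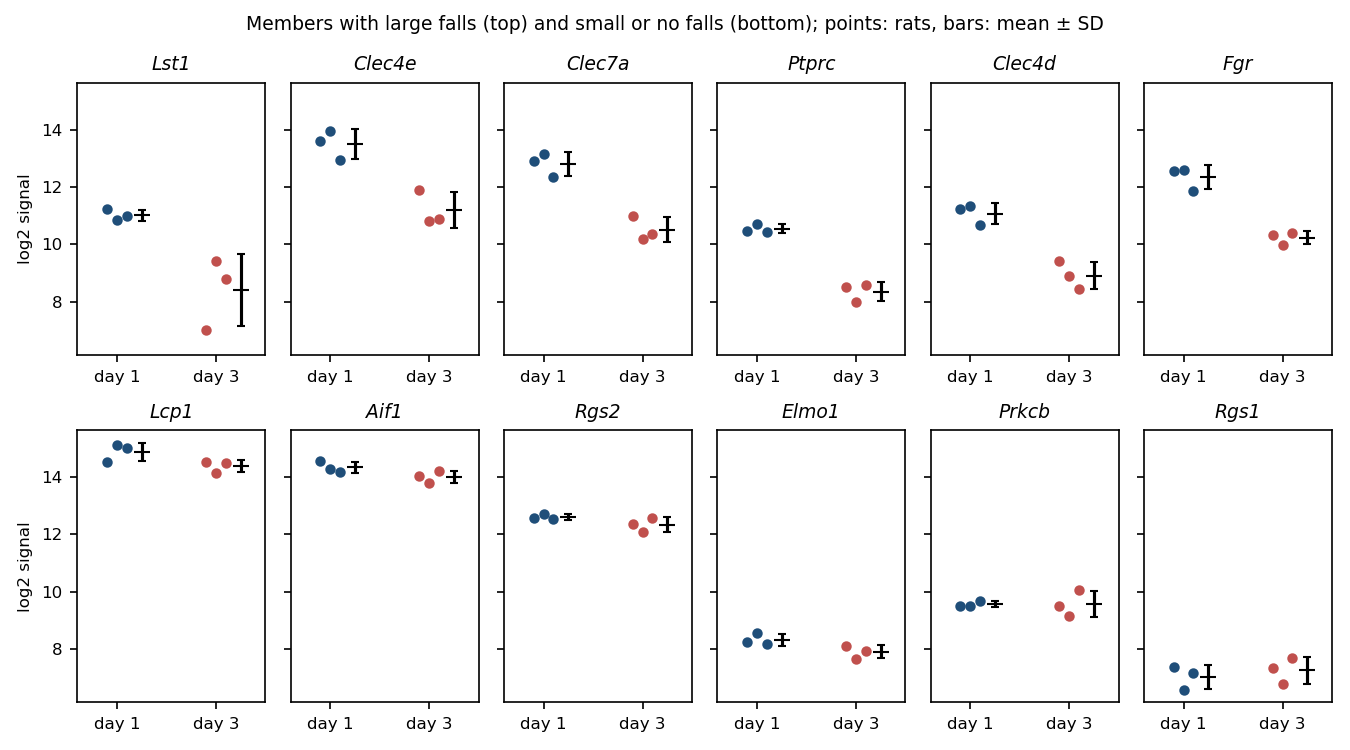
Log2 signal (vertical axis) of each rat at day 1 and day 3 for 6 members with large falls (top) and 6 with small changes (bottom); bars are mean ± SD of 3 rats. Day 1 and day 3 points are separate for Lst1, Clec4e, Clec7a, Ptprc, Clec4d, Fgr and Elmo1 and overlap for Lcp1, Aif1, Rgs2, Prkcb and Rgs1.

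Of the kinases and phospholipase, 5 of 7 tested genes fell, and on each probe's own spread 2, with Btk, Plcg2 and Prkcd losing the call. Fgr, a Src-family kinase of neutrophils and monocytes, had 12.58, 12.59 and 11.85 at day 1 and 10.34, 9.96 and 10.38 at day 3, and fell 4.32-fold (adjusted p = 0.00155). Lyn, another Src-family kinase and one that also serves inhibitory receptors, fell 2.33-fold (adjusted p = 0.00223). Btk, a Tec-family kinase of B cells and myeloid cells, had 10.00, 10.21 and 9.37 at day 1 and 8.66, 8.03 and 8.68 at day 3, a 2.65-fold fall (adjusted p = 0.00906). Plcg2, the phospholipase that Btk activates, fell 2.03-fold (adjusted p = 0.00935). Prkcd, a diacylglycerol-responsive protein kinase C, fell 2.62-fold (adjusted p = 0.0124; 0.0501 without day 3 rat 6). Prkcb, the other protein kinase C listed, gave no such change: it had 9.50, 9.49 and 9.68 at day 1 and 9.51, 9.16 and 10.05 at day 3 (change 0.02 ± 0.224 SE, adjusted p = 0.964). Its day 3 rats lay on both sides of the day 1 values, and its change was -0.22 without day 3 rat 7. Pik3cd, a catalytic subunit of phosphoinositide 3-kinase, had a change of -0.18 (adjusted p = 0.353), and its signal on all arrays lay near the array median.

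All 7 adaptors fell, and 6 did on each probe's own spread, Cytip being the exception. Lcp2 (SLP-76), which joins Syk-family signals to Vav1 and phospholipase C, had 10.89, 11.32 and 10.59 at day 1 and 9.30, 8.50 and 8.82 at day 3, a 4.17-fold fall (adjusted p = 0.00223). Pik3ap1 (BCAP), which recruits phosphoinositide 3-kinase, had 11.88, 11.69 and 11.58 at day 1 and 10.31, 9.71 and 10.24 at day 3, a 3.09-fold fall (adjusted p = 0.00177). The days did not overlap for any adaptor. Plek, a protein kinase C substrate of platelets and leukocytes, was among the brightest members and fell 2.74-fold, from 14.89 ± 0.26 to 13.44 ± 0.30. Cytip, which binds cytohesins, fell 2.40-fold, and Skap2, which links integrin signals to actin, fell 2.24-fold. Fyb1 (ADAP), a partner of Lcp2, fell 1.83-fold and Sash3 fell 1.60-fold, but both lay near the array median at day 3, so their folds are understated.

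Of the phosphatases and inhibitory adaptors, 6 of 8 genes fell, and on each probe's own spread 3, with Dok1, Dok3 and Inpp5d losing the call. Dok2, an adaptor that recruits RasGAP, had 11.86, 12.22 and 11.74 at day 1 and 10.53, 10.04 and 10.52 at day 3, a 2.98-fold fall (adjusted p = 0.00212). Dok3, a myeloid and B-cell relative, had 12.07, 11.75 and 11.16 at day 1 and 10.52, 9.97 and 10.33 at day 3, a 2.62-fold fall (adjusted p = 0.00815). Dok1 fell 1.63-fold (adjusted p = 0.0201), which became 0.0726 or 0.0523 with rat 1 or 2 of day 1 left out and 0.0596 or 0.066 with rat 4 or 6 of day 3 left out. The lipid phosphatase Inpp5d (SHIP1) fell 2.40-fold and the tyrosine phosphatase Ptpn6 (SHP-1) fell 2.16-fold, with adjusted p of 0.009 and 0.00257. Sla, which dampens antigen-receptor signals, fell 2.42-fold.

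The regulators of G-protein signalling, which shorten signals of chemokine and other receptors, were the exceptions in that group. Rgs2 had 12.57, 12.71 and 12.53 at day 1 and 12.36, 12.08 and 12.58 at day 3 (change -0.26 ± 0.151 SE, adjusted p = 0.227). Rgs1 had 7.37, 6.56 and 7.14 at day 1 and 7.33, 6.76 and 7.69 at day 3 (change 0.23 ± 0.291 SE, adjusted p = 0.572), and it is named here after its values were seen. The days overlapped for both genes. The day 1 mean of Rgs1, 7.03, lay near the array median of 6.47, where a fall is understated. Its day 3 mean was 7.26, so no fall was seen.

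The actin and integrin regulators fell in 10 of 14 genes, and on each probe's own spread in 6, with Was, Fermt3, Nckap1l and Arpc1b losing the call. Arhgap9, a GTPase-activating protein, had 13.00, 13.46 and 12.69 at day 1 and 11.79, 11.43 and 11.26 at day 3 on its brightest probe, a 2.95-fold fall (adjusted p = 0.00384). Its other 2 probes differed: 1 lay below the array median throughout and was not tested, and 1 lay near the median with a change of 0.37 and day 3 above day 1 on every array (adjusted p = 0.0534, and 0.0453 with no filter, where it counts as higher). Fermt3 (kindlin-3), which activates integrins in blood cells, had 12.53, 12.71 and 11.79 at day 1 and 11.27, 10.23 and 11.10 at day 3, a 2.78-fold fall (adjusted p = 0.017; 0.0661 without day 1 rat 1). Was, the Wiskott-Aldrich protein, fell 2.62-fold, and Vav1, which loads Rac with GTP, fell 2.60-fold with little spread, from 11.12 ± 0.16 to 9.75 ± 0.16. Hcls1, a cortactin relative, fell 2.61-fold, Coro1a, an actin-binding coronin, 2.44-fold, and Gmfg, which removes actin branches, 2.23-fold.

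Other genes of the actin group fell less. Nckap1l (Hem1), the haematopoietic subunit of the WAVE complex, fell 1.89-fold (adjusted p = 0.0334). Its adjusted p was 0.0986 or 0.0711 with rat 1 or 2 of day 1 left out, 0.0539, 0.113 or 0.0924 with rat 4, 6 or 7 of day 3 left out, and 0.0538 with no filter. Arhgdib fell 1.56-fold (adjusted p = 0.0125; 0.0513 without day 3 rat 6). Arpc1b, a subunit of the Arp2/3 complex that branches actin, had 11.90, 11.72 and 11.64 at day 1 and 11.43, 11.30 and 11.29 at day 3. This was a 1.33-fold fall (adjusted p = 0.0369), which became 0.107 or 0.0569 with rat 1 or 2 of day 1 left out and 0.0795, 0.11 or 0.123 with rat 4, 6 or 7 of day 3 left out.

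Wipf1, Lcp1, Elmo1 and Aif1 did not pass. Lcp1 (L-plastin), which bundles actin, had 14.52, 15.11 and 15.01 at day 1 and 14.53, 14.15 and 14.49 at day 3 (change -0.49, adjusted p = 0.0969; 0.0421 without day 1 rat 1). Aif1 (Iba1), an actin-bundling protein used as a macrophage marker, had 14.55, 14.28 and 14.18 at day 1 and 14.02, 13.79 and 14.20 at day 3 (change -0.33, adjusted p = 0.148). Both probes were bright on every array, and the days overlapped for both. Elmo1, which with Dock proteins activates Rac, had 8.25, 8.56 and 8.16 at day 1 and 8.09, 7.66 and 7.94 at day 3 (change -0.42, adjusted p = 0.0939). Wipf1, which protects the Wiskott-Aldrich protein, had a change of -0.54 (adjusted p = 0.0719; 0.0281 without day 1 rat 3). The 1 transcription factor listed, Ikzf1 (Ikaros), had 6.98, 7.64 and 6.91 at day 1 and 6.64, 6.60 and 6.56 at day 3 (change -0.57, adjusted p = 0.0685; 0.0263 without day 1 rat 3). Its day 3 values lay just above the array median.

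**Figure D3:**
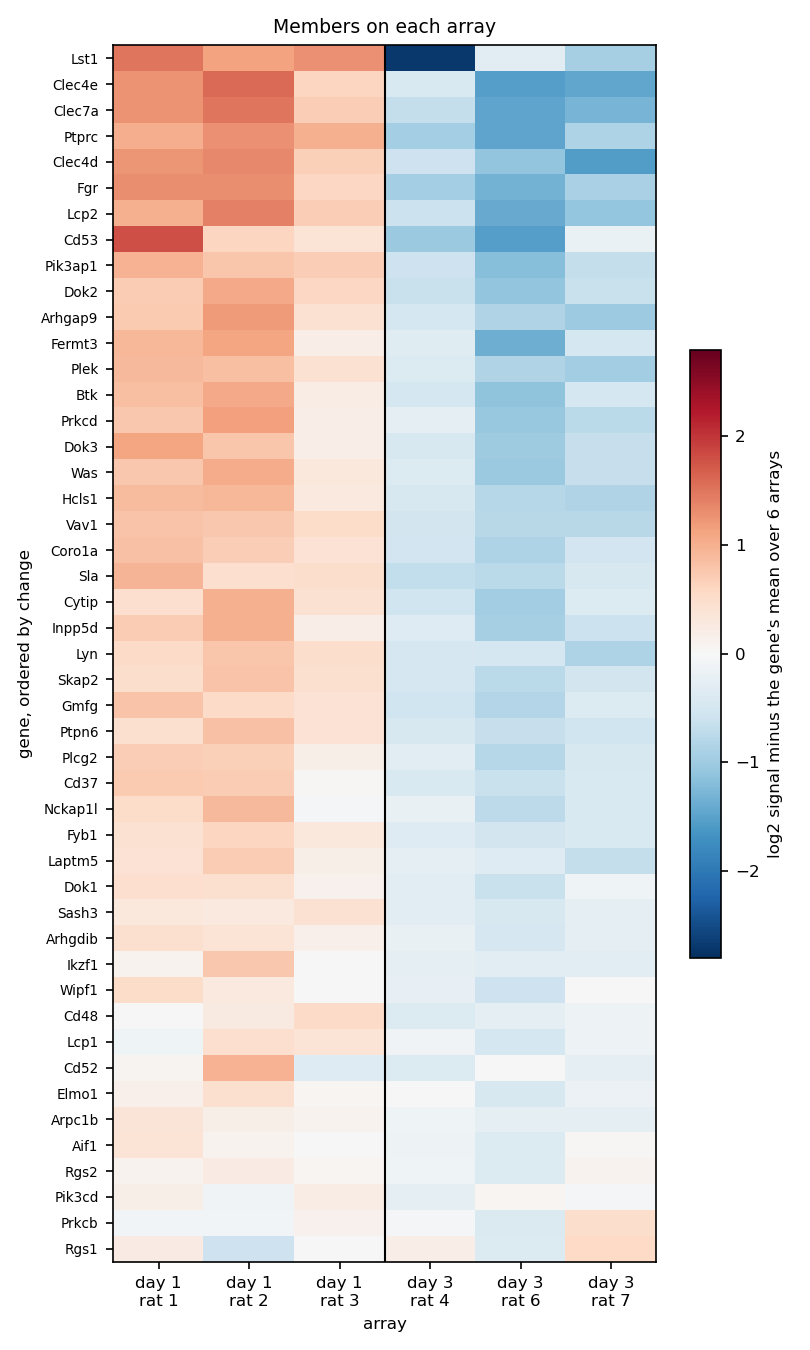
Each row is 1 of the 47 members, ordered by change, and each column 1 array; colour is the log2 signal minus the gene's mean over the 6 arrays. The 3 day 1 columns are red and the 3 day 3 columns blue for most genes, and the contrast fades from Lst1 at the top to Rgs1 at the bottom.

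To ask which members fell most and least, each array's mean over the 47 members was subtracted from every probe and the fit was repeated. This mean was 11.31, 11.39 and 10.98 in day 1 rats 1, 2 and 3 and 10.20, 9.88 and 10.14 in day 3 rats 4, 6 and 7, a change of -1.15. Relative to it, 9 members fell more, 14 fell less and 24 did not pass. Of all tested probes, 1.66% were lower than the mean and 86.5% higher, so a member that fell less behaved like most probes on the array.

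The members that fell more than the mean were Lst1, Clec4e, Clec7a, Ptprc, Clec4d, Fgr, Lcp2, Pik3ap1 and Dok2. Clec4e had a relative change of -1.15 (adjusted p = 0.00315), Clec7a one of -1.14 (adjusted p = 0.000936), Ptprc one of -1.04 (adjusted p = 0.000729), Clec4d one of -1.02 (adjusted p = 0.00345), Fgr one of -0.96 (adjusted p = 0.00101) and Lcp2 one of -0.91 (adjusted p = 0.00226). These 6 passed without each rat in turn. Lst1 did not pass without day 1 rat 1 (adjusted p = 0.0746) or day 3 rat 4 (0.0591). Pik3ap1 (main adjusted p = 0.0354) passed without day 1 rat 2 only, and Dok2 (0.0486) lost the call whichever rat was left out. Leaving out day 3 rat 6, for example, gave 0.107 for Pik3ap1 and 0.124 for Dok2.

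The members that fell less than the mean included Rgs1 (relative change 1.38, adjusted p = 0.00146), Prkcb (1.16, adjusted p = 0.00148), Pik3cd (0.97, adjusted p = 0.00407), Rgs2 (0.89, adjusted p = 0.00144), Aif1 (0.82, adjusted p = 0.00239), Arpc1b (0.74, adjusted p = 0.00424) and Elmo1 (0.73, adjusted p = 0.00329). These 7 passed without each rat in turn. Wipf1, Lcp1, Cd48, Cd52, Ikzf1, Arhgdib and Dok1 also passed, but each lost the call without at least 1 rat. Among the 14 are 4 genes that fell in their own right, Arhgdib, Dok1, Cd48 and Arpc1b. Rgs1, Pik3cd, Cd52 and Ikzf1 lay near the array median, where a fall is understated, while Aif1, Lcp1, Rgs2 and Arpc1b were bright. With Ptprc in place of the mean, 37 of the other 46 members fell less than Ptprc and 0 fell more, and the counts were 36 and 0 when each probe was tested on its own spread. The share of all tested probes in that fit was not counted. Ptprc changed by -2.19 beside a median of -0.05 for all tested probes, so these counts say little about the members in particular. The p-values of these fits share 1 reference and are not independent of each other.

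Several members belong to families with a paralogue that is not restricted to blood cells. Of 13 such pairs, drawn up after the values were seen, 10 had both genes tested. Fermt3 fell while Fermt2 (kindlin-2), its counterpart in mesenchymal and epithelial cells, rose 4.90-fold (adjusted p = 0.00458), from 10.05, 9.13 and 10.69 in day 1 rats 1, 2 and 3 to 12.26, 12.23 and 12.26 in day 3 rats 4, 6 and 7. Plcg2 fell while Plcg1, the form activated by growth-factor receptors, rose 2.84-fold (adjusted p = 0.00445), from 8.91, 8.39 and 9.29 to 10.19, 10.47 and 10.45. Nckap1l fell while Nckap1, the WAVE complex subunit of other cells, rose 2.90-fold (adjusted p = 0.0192), from 7.90, 7.35 and 8.85 to 9.32, 9.86 and 9.53. In each of these 3 pairs the blood-cell gene and its paralogue moved in opposite directions. The falls of Fermt3, Plcg2 and Nckap1l did not pass on each probe's own spread (adjusted p = 0.0925, 0.0582 and 0.121). Nckap1l also lost its call in 5 of the fits that left out 1 rat, and Fermt3 in 1.

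The other paralogues did not rise. Coro1b, Gmfb, Arpc1a and Pik3cb fell, with changes of -0.43, -0.44, -0.58 and -0.99, and Coro1c, Inppl1 and Ptpn11 did not pass, with changes of -0.17, -0.14 and -0.26. On the signed scale the member had the lower change in 8 of the 10 pairs, the exceptions being Arpc1b and Pik3cd. The log ratio of member to paralogue did not overlap between days in 9 of the 10 pairs, Arpc1b with Arpc1a being the exception. An exact two-sided permutation test of each ratio gave p = 0.1 for those 9, the smallest that 3 rats against 3 can give, and 0.6 for Arpc1b. After adjustment over the 10 pairs the smallest p was 0.1111, so no ratio passed.

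**Figure D4:**
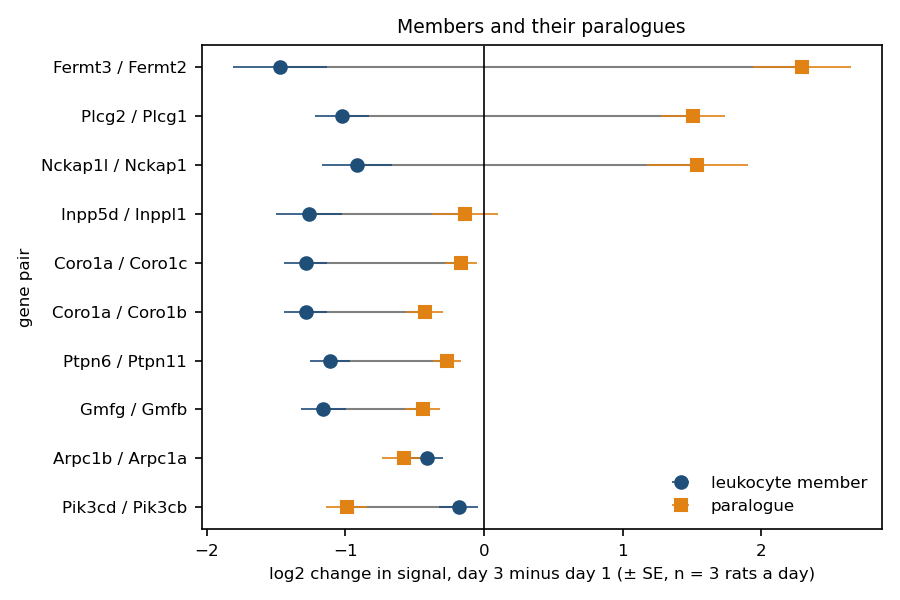
Log2 change from day 1 to day 3 (horizontal axis, ± SE, 3 rats a day) of 9 members (circles) and of 10 paralogues (squares), 1 pair a row. Fermt2, Plcg1 and Nckap1 lie to the right of 0, opposite their partners, while the other paralogues lie at or left of 0.

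A wider list of signalling and actin genes that are not members, also chosen with earlier results known, was read the same way. Of 66 tested genes, 36 were lower and 6 higher (background 15.2% and 16.7%), with a median change of -0.59 beside -0.05 for all tested probes. Pik3r5 and Cyfip2 passed the filter through day 1 alone, and over the other 64 genes 34 were lower and 6 higher, with a median of -0.56. When each probe was tested on its own spread, 19 were lower and 4 higher, where 672 of all 11591 probes were lower and 1019 higher. Among Src, Syk and Tec kinases and their regulators, 6 of 9 fell and none rose. The largest were Syk, the kinase downstream of Clec4e and Clec7a, which fell 2.21-fold (adjusted p = 0.0183), Tec, a Btk relative, which fell 2.18-fold (0.00583), and Ptpn7, a leukocyte phosphatase, which fell 2.12-fold (0.0107). Among adaptors and lipid signalling genes, 10 of 19 fell and 1, Plcg1, rose, with Sh2b2 falling 3.04-fold, Rasal3 2.90-fold and Themis2 2.77-fold.

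Among 38 further genes of actin nucleation and its regulation, 20 fell and 5 rose. Pstpip1, a partner of the Wiskott-Aldrich protein, fell 4.28-fold (adjusted p = 0.0114), Arhgap45 fell 3.30-fold and Arhgap30 fell 2.53-fold. The 5 that rose were Fermt2, Evl, Nckap1, Abi1 and Wasf1. Evl, an Ena/VASP protein, rose 3.05-fold, and Abi1 and Wasf1, which sit with Nckap1 in WAVE complexes, rose 1.74-fold and 1.68-fold.

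Marker genes of several cell types moved between the same days. Of 9 tested neutrophil markers, 8 fell (median change -2.39), and the summed signal of all 13 with a probe was 31980 to 41276 units at day 1 and 6983 to 9956 at day 3. Of 10 macrophage and monocyte markers, 5 rose and 2, Cd14 and Mpeg1, fell, with summed signals of 19582 to 26841 and 23007 to 36666. Of 9 T, B and NK cell markers 1, Cd3d, fell, while all 9 fibroblast markers and 6 of 7 endothelial markers rose. Fibroblast markers summed to 17435 to 55989 units at day 1 and 131003 to 148698 at day 3. Of 5 mast cell and 3 platelet markers 1 each fell, Hdc and Ppbp, and of 8 skeletal muscle and 5 adipocyte markers 0 passed. S100a9, Fpr1, Ngp and Ltf among neutrophil markers, Marco among macrophage markers, Cd5 and Ms4a1 among lymphocyte markers, Kit and Mcpt1 among mast cell markers and Gp9 and Treml1 among platelet markers were below the array median on all 6 arrays. The part of these cell types in the changes of the members was not tested.

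Within each day, 1 rat was the lowest for most members. The share of all tested probes with that order was not counted, so this is not shown to be particular to the members. Day 1 rat 3 was the lowest day 1 rat for 39 of 47 members, and day 3 rat 6 the lowest day 3 rat for 35 of 47. The same 2 arrays carried high skeletal muscle signal: 11 muscle markers summed to 33667 units in the former and 26234 in the latter, while the other arrays had 1258 to 2803. Day 1 rat 3 also had the highest fibroblast sum of day 1. Without both arrays 35 members were lower and 0 higher, and the median change of the members was -1.20. Of all 11591 tested probes, 1938 were then lower and 2091 higher.

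**Figure D5:**
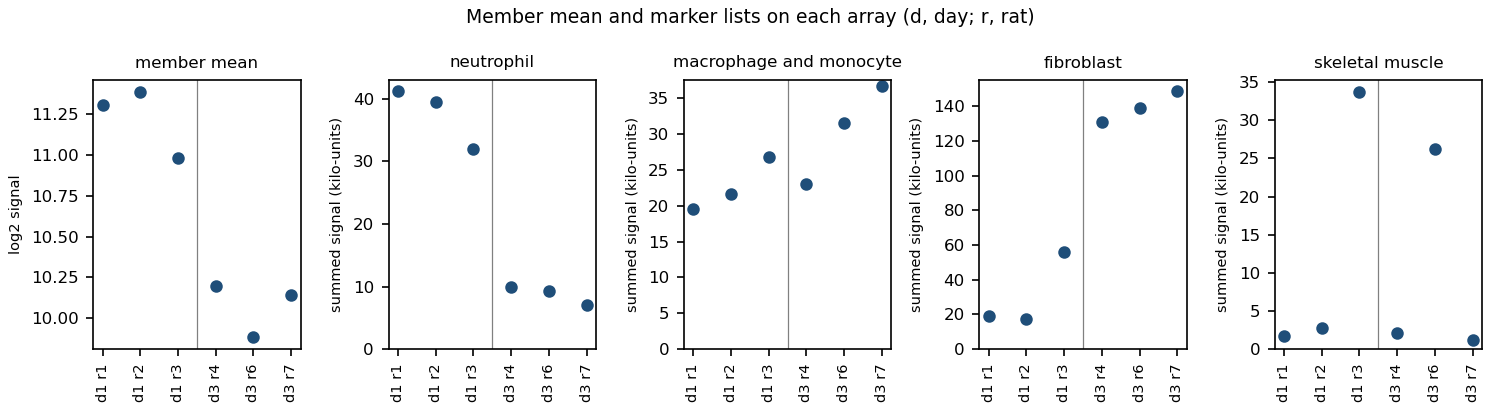
Mean log2 signal of the 47 members (left) and summed signal of marker genes in kilo-units of intensity (other panels) on each array; points are single arrays, and the grey line separates day 1 from day 3. The member mean and the neutrophil sum are lower on all 3 day 3 arrays, the fibroblast sum is higher, and the muscle sum is high on 1 array of each day.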

How the data were processed

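The deposited table used here holds intensity values on a linear scale for 22517 probes. They had already been normalized between arrays: sorted columns differ by at most 0.535 units. The submitters' processing notes name limma without a version, and no source used here says whether the authors corrected the background. A second table of 12 columns of signal and detection p-values has headers that match no label and was not used.

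From these intensities log2 values were made after limma's normexp step with an offset of 50 (limma 3.58.1, R 4.3.3). The filter kept 11591 probes, those brighter than the array median on 3 or more of the 6 arrays. Each was tested two-sided with lmFit and eBayes. For a gene with several probes the brightest stands. The offset and the array's lower limit understate falls of dim probes. No depth applies to arrays, and 3 rats a day limit the precision.

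The members and lists were chosen with earlier results of these data known. Per-array values are given for Ptprc, the 10 largest falls, the 6 smallest changes among probes brighter than the median of kept probes, and the 2 largest changes in each role. Cd52 and Rgs1 are given per-array values outside this rule. Other members are described by change or mean. In pathway lists the 3 largest called changes each way are named. On simulated data over 11591 probes the test recovered 57 of 100 2-fold and 92 of 100 4-fold changes, with 9 of 158 calls false. Simulated probes varied independently and few were changed, unlike in these data, so those rates need not hold here. Alternatives changed the background step, filter, normalization, weights, variance model, threshold, reference and rats included. Promoters and gene positions are RefSeq's, GRCr8. Exact tests used scipy 1.17.1.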

Additional observations from a re-analysis of the deposited data

How the results depend on the processing

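The 37 falls among members became 26 at adjusted p under 0.01, 28 at 2-fold and over, and 29 to 38 without 1 rat. Of all 11591 tested probes, 667, 731 and 881 to 2405 were lower in these settings. Testing each probe on its own spread, added after seeing the data, gave 20 falls among members, 1691 called probes (672 lower, 1019 higher) and 19 lower pathway genes. Of the 37, all kept the call with no background correction, with cyclic loess and with array weights, and 26 kept it without each rat in turn. The share of all called probes that kept theirs was not counted. Called probes, 3694 in the main setting, were 6123 with array weights, 1593 at adjusted p under 0.01, 1563 at 2-fold and 2016 to 4902 without 1 rat. Lower pathway genes were 18 at adjusted p under 0.01 and 17 at 2-fold. Members falling less than the member mean were 7 at adjusted p under 0.01, 2 at 2-fold and 8 to 14 without 1 rat, and those falling more were 5 at 2-fold. With Ptprc as reference, 37 fell less and 0 more, and on each probe's own spread 36 and 0. The share of all tested probes was not counted in that fit or in the other relative alternatives. The changes relative to Ptprc were then 0.13 for Lcp2, 0.077 for Fgr, 0.61 for Dok2, 0.56 for Pik3ap1 and 0.022 for Clec4d, the opposite sign to those relative to the mean, since Ptprc itself fell more than the mean. The change of Prkcb, near 0, was -0.01 and -0.02 without day 1 rats 1 and 2 and ranged from -0.22 without day 3 rat 7 to 0.22 without day 3 rat 6. By the brightest probe of each gene, 0 members were higher under every alternative, while a dimmer probe of Arhgap9 was higher with no filter (adjusted p = 0.0453). No paired analysis was possible because the rats of the 2 days carry different numbers. For probes near the array median, low signal over background limits what a fall can show.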
